A study of Mus musculus with 12 samples.

Results

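Natural killer (NK) cells of the mouse lymph node were picked out of 12 single-cell RNA libraries by their own transcripts. A cell was counted as a member when it held at least 2 UMIs of Ncr1 and Klrb1c together, at most 1 UMI of Cd3d, Cd3e and Cd3g together, at most 1 of Trdc and none of Cd79a or Ms4a1. Each UMI stands for 1 RNA molecule caught from a cell. Of 95358 cells with at least 1000 UMIs, at least 500 genes and at most 10% mitochondrial UMIs, 572 met the rule, which is 0.6%. Ncr1 encodes the activating receptor NKp46 and Klrb1c encodes the receptor known as NK1.1. The Cd3 genes and Trdc encode parts of the T cell receptor complex, and Cd79a and Ms4a1 mark B cells. The levels of these 8 genes in members are therefore fixed by the choice and are not results.

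NK cells are innate lymphocytes that kill stressed or infected cells without a rearranged antigen receptor. They release perforin and granzymes from granules, secrete interferon gamma and chemokines, and weigh signals from activating receptors against inhibitory receptors of the Ly49 and NKG2 families that read MHC class I. In lymph nodes they are a small population that enters from blood, partly across high endothelial venules, and the related type 1 innate lymphoid cells share their Ncr1 and Klrb1c.

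The study asked how loss of autophagy from endothelial cells affects high endothelial venules and immune cells of inflamed lymph nodes. All mice were C57BL/6 of 7 to 10 weeks, carried Atg12 fl/fl and received tamoxifen 5 times. Those labelled Cre-positive also carried Cdh5 CreER, a tamoxifen-inducible Cre recombinase that the series text describes as endothelial-specific, and those labelled Cre-negative lacked it. The abdominal skin was painted with 50 ul of 4% oxazolone, a contact sensitiser, in acetone and olive oil, and lymph nodes were collected 3 or 7 days later. Vehicle mice received the solvent alone. After enzymatic digestion, magnetic beads against CD45 split each suspension into a bound immune fraction (CD45) and an unbound fraction enriched in endothelium (CD31), and both were sorted. Each combination of genotype, treatment and fraction is 1 library, and the labels do not say how many animals a library holds. P-values therefore measure the spread between libraries across conditions and not between animals.

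The 12 libraries held 36724887 to 76186801 UMIs and 5984 to 11636 cells. The 6 CD45 libraries gave 375 members and the 6 CD31 libraries gave 197. Members had a median of 3941 to 6502.5 UMIs per cell in the CD45 libraries, and their summed UMIs ranged from 183813 to 535668 per library. Any pair of libraries shared 7 to 31 cell barcodes, and no member's barcode occurred as a member in another library. Members of both vehicle Cre-positive libraries included 0 with Xist and no Y-linked RNA, while every other library held members of either kind, so sex is unevenly spread over the groups and its part in any difference was not tested.

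The name NK cell was checked against genes that the rule did not use. After setting aside 39 cells with foreign markers, described below, 336 members remained in the CD45 libraries. Of these, 96.7% held a UMI of the granule gene Nkg7, 94.9% held Klrk1 (the activating receptor NKG2D), 81.8% held Gzma, 75.0% held Prf1 (perforin), 56.5% held Tbx21 (T-bet) and 53.6% held Eomes. The last pair are the transcription factors that direct NK development. The background is given by 16864 B cells, which should hold little of these genes and whose median depth per library was 2553.5 to 4391 UMIs against 3802 to 6296 for the NK cells. These B cells held at least 2 UMIs of Cd79a and Ms4a1 together and none of the Cd3 genes, Ncr1 or Klrb1c. That choice left out B cells with stray RNA of those genes, so the background may be too low. The B cell shares were 0.385%, 0.296%, 0.273%, 0.972%, 1.26% and 0.0534% in the same order. Trac, made from the rearranged T cell receptor alpha locus, was seen in 3.57% of these members and in 85.5% of CD8 T cells. Transcripts of the beta constant regions were common, Trbc1 in 76.2% and Trbc2 in 43.5%. NK markers outside the rule were thus present in most members, with the exceptions given below for foreign markers and for cells with Il7r.

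RUNX and T-box transcription factors, the families of Runx3, T-bet and Eomes, act in NK development, and the short letters they are known to bind were searched in promoters. The 250 bases before the start of 3 genes are shown because the rule or the results below turn on them. Capitals mark the RUNX letters TGTGGT or the reverse complement ACCACA, and the T-box letters TCACAC or the reverse complement GTGTGA. The windows come from RefSeq on build GRCm38.p6 and are written 5′ to 3′ in the direction of the gene, at chr7:4337465-4337714 on the plus strand for Ncr1, chr13:113100982-113101231 on the minus strand for Gzma and chr14:56262335-56262584 on the minus strand for Gzmb.
Ncr1: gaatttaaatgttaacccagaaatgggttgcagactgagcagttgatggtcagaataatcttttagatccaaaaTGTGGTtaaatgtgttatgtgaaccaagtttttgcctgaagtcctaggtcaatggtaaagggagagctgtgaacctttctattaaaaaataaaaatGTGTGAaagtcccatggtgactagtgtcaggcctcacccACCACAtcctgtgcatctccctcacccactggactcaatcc
Gzma: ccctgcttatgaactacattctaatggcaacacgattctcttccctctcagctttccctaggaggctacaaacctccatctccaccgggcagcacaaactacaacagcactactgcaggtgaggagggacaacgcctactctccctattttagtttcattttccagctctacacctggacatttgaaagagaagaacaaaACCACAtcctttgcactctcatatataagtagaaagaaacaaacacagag
Gzmb: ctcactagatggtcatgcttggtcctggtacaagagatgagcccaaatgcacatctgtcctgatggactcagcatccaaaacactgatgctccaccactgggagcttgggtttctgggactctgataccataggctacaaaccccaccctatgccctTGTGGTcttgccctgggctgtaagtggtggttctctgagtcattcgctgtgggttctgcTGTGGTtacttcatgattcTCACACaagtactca
Ncr1 and Gzmb each held 2 RUNX matches and 1 T-box match, and Gzma held 1 RUNX match and 0 T-box matches. Of 27025 promoter windows of this length, 14.2% held the RUNX letters and 12.2% held the T-box letters on either strand. Matches of both motifs may share bases, and each was counted on its own. The window of Klrb1c held 1 RUNX match and 0 T-box matches and is not shown, because it lies inside the gene as GENCODE places it. A match describes the letters only and shows no binding.

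How sharp the border of the population was can be read from the cells beside it. Of the 572 members, 512 (89.5%) held UMIs of both receptors. The 42 members with exactly 2 receptor UMIs had 2280 CPM of Gzma (a gene's UMIs divided by all UMIs of the same cells and scaled to the usual CPM unit), against 5681 CPM over all members. The 67 cells with 1 receptor UMI, just outside the rule, had 771 CPM of Gzma and 4840 CPM of Lyz2, a myeloid gene. The 12 cells that missed only because they held 2 Cd3 UMIs had 7930 CPM of Gzma, and the 20 that missed through 2 Trdc UMIs had 7185 CPM. Cells just outside the receptor limit thus held much myeloid RNA, and those just outside the Cd3 and Trdc limits held at least as much Gzma as members.

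Some members also carried RNA of other cell types. Counting 24 genes of B cells, macrophages and dendritic cells, 10 of endothelium and 10 of fibroblasts, 87 members (15.2%) held at least 3 distinct genes of 1 of these 3 groups. These mixed cells were 39 of 375 (10.4%) in the CD45 libraries and 48 of 197 (24.4%) in the CD31 libraries. The antigen-presenting group accounted for 65 of them, the endothelial group for 33, of which 32 lay in CD31 libraries, and the fibroblast group for 18, of which 17 lay in CD45 libraries. Mixed cells averaged 12911 UMIs against 4892 in the other 485 members, and their Gzma stood at 2635 CPM against 7123 CPM. They held 25.6% of all UMIs of members in the CD45 libraries and 43.4% in the CD31 libraries. In the CD45 libraries, in the order vehicle, day 3 and day 7 with Cre-negative first in each pair, the mixed share was 11.1% and 6.49%, 6.06% and 19.0%, and 0% and 18.9%. It was therefore unequal between genotypes at day 3 and day 7, in the same direction. The same order is used for all sets of 6 values below, and the 485 other members are called unmixed. The counted genes, which include Kdr, Pecam1, C1qb, Dcn, Col3a1, Ccl19 and Ccl21a named below, are partly placed in mixed cells by this choice.

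NK cells made up a smaller part of the CD45 cells after oxazolone than after solvent in the pooled values, given here without a test. They were 0.852% (72 cells) and 1.23% (77 cells) of cells in the vehicle libraries, 0.799% (66) and 0.702% (42) at day 3, and 0.576% (44) and 0.849% (74) at day 7. The mean share was 1.04% for vehicle, 0.750% at day 3 and 0.712% at day 7. The ratio to vehicle was 0.722 at day 3 (95% counting interval by a normal approximation on the log scale 0.564 to 0.925) and 0.686 at day 7 (0.538 to 0.873), and these intervals cover counting error only. The day 3 shares lay below both vehicle shares, while the day 7 Cre-positive share of 0.849% nearly equalled the vehicle Cre-negative share of 0.852%. With 2 libraries a side, no exact test can reach 0.05. Leaving out 1 library in turn moved the day 3 ratio between 0.612 and 0.881 and the day 7 ratio between 0.554 and 0.836. Unmixed members were 0.757% and 1.15%, 0.750% and 0.568%, and 0.576% and 0.688% of cells. A share of sorted cells falls equally when NK cells leave and when other cells enter.

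In the CD31 fraction, from which CD45-bearing cells had been depleted, members were 0.518% and 0.527% of cells for vehicle, 0.311% and 0.309% at day 3, and 0.261% and 0.459% at day 7. Every oxazolone library lay below both vehicle libraries there too. Depletion and sorting set these shares, so they are not abundances in the node.

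**Figure D1:**
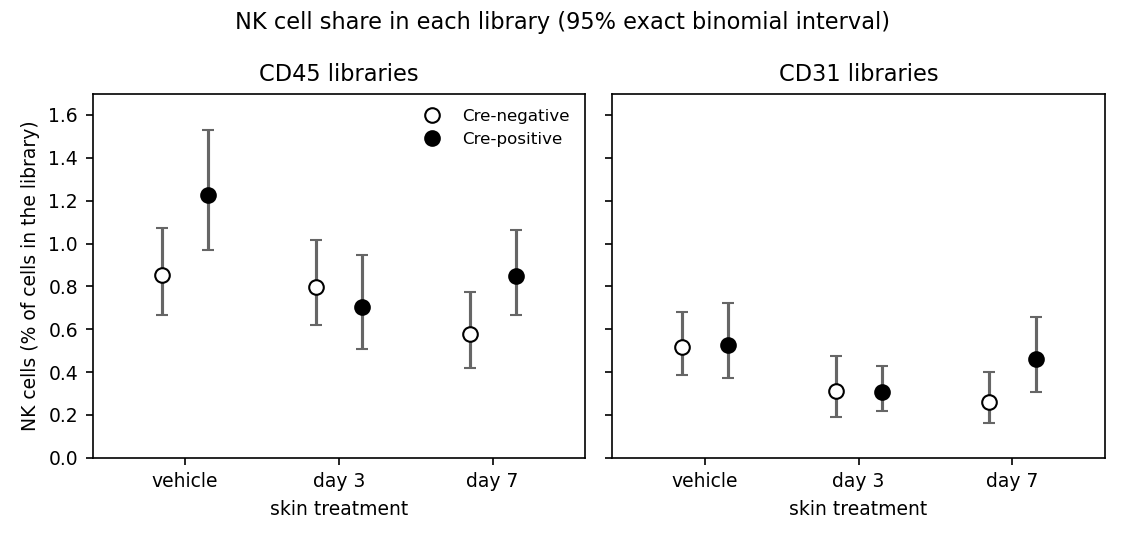
Share of NK cells among the cells of each library, in percent, for the CD45 libraries (left) and CD31 libraries (right) by skin treatment. Open points are Cre-negative and filled points Cre-positive libraries, bars are 95% exact binomial intervals, and the vehicle Cre-positive CD45 library is the highest at 1.23%.

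The transcriptome of members was set beside that of 2 T cell populations of the same CD45 libraries, CD8 T cells and gamma-delta T cells. CD8 T cells held at least 2 UMIs of Cd8a and Cd8b1 and at least 2 of the Cd3 genes. They held at most 1 of Trdc and none of Cd4, Cd79a, Ms4a1, Ncr1 or Klrb1c. Gamma-delta T cells held at least 2 UMIs of Trdc and at least 2 of the Cd3 genes, and none of Cd4, Cd8b1, Cd79a or Ms4a1. Only the CD8 T cells were thus chosen to lack the NK receptors, so the 2 comparisons are not alike. Because the cells were chosen by expression, these levels are a description with no test. Among 10215 genes with at least 20 UMIs in members, NK cells lay above CD8 T cells in every library without overlap for 10.3% and below for 4.26%. Against gamma-delta T cells the figures were 3.58% above and 1.92% below. Read against these shares, the gene lists with more than 50% of their members above both T cell types were the NK identity genes (17 of 22 above CD8 T cells and 14 of 22 above gamma-delta T cells), the Ly49 receptors (7 of 11 for both), the activating receptors (14 of 23 for both) and the mature NK genes (11 and 8 of 14). The inhibitory and checkpoint receptors (10 and 9 of 18) and the trafficking receptors (13 and 10 of 21) came next. The interferon-stimulated genes (2 and 0 of 42) and the cell cycle genes (0 of 26 for both, with 7 below gamma-delta T cells) were not among them. Autophagy genes were above CD8 T cells for 4 of 16 and above gamma-delta T cells for 2. Some lists also held genes below CD8 T cells and below gamma-delta T cells without overlap. These were 3 and 4 activating receptors, 3 and 1 inhibitory receptors, 2 and 4 trafficking receptors, and 0 and 1 NK identity genes. Of 17 genes of type 1 and other innate lymphoid cells, 3 and 0 lay above and 2 and 5 below.

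Of the cytotoxic genes, Gzma, the trypsin-like granzyme, had 6364 and 5171 CPM in vehicle members, 11198 and 4258 CPM at day 3, and 5457 and 4781 CPM at day 7. The day 3 Cre-negative library was the highest and its Cre-positive partner the lowest, so the treatment groups overlapped. Gzmb, the granzyme that cleaves after aspartate, had 417 and 423, 554 and 279, and 446 and 209 CPM. Prf1, which forms pores in target cells, had 509 and 383, 541 and 284, and 375 and 278 CPM. In both genes the lowest library at each oxazolone time was Cre-positive, and day 3 and vehicle values overlapped. These orders are over all members. Summed over the cytotoxic list, day 7 Cre-positive was the lowest library over all members, at 9513 CPM. In unmixed members the lowest was day 7 Cre-negative, at 11512 CPM. CD8 T cells had 32.1 to 46.3 CPM of Prf1 and gamma-delta T cells 13.2 to 30.8 CPM. Of the 22 granule and death ligand genes, 10 lay above CD8 T cells without overlap and 9 above gamma-delta T cells, including Fasl, the death ligand, at 79.4 to 142 CPM against at most 32.8 CPM in either. Gzmk was nearly absent, at 1.87 to 10.9 CPM.

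Among activating receptors and their adaptors, Tyrobp (DAP12) stood at 1804 to 2660 CPM and Fcer1g at 1469 to 2513 CPM in members, with at most 89.6 and 109 CPM in gamma-delta T cells and less in CD8 T cells. Klrk1 stood at 687 to 979 CPM, against 11.7 to 47.8 CPM in CD8 T cells and 114 to 219 CPM in gamma-delta T cells. In each of these 3 genes the lowest NK library lay above the highest library of both T cell types. Among inhibitory receptors, Klrd1 (CD94), which pairs with NKG2 chains, stood at 487 to 1168 CPM, and Klrc1 (NKG2A), its inhibitory partner, at 184 to 311 CPM.

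The Ly49 receptors are carried by overlapping parts of the NK population. Of the unmixed CD45 members, 44.6% held a UMI of Klra7, 35.4% of Klra9, 34.8% of Klra4 and 30.1% of Klra8, against at most 0.0593% of B cells. Klra4 was seen in 65.3% of the cells with Klra8 and in 21.7% of the cells without it. The summed levels differed widely between libraries: Klra4 had 619 and 1021, 847 and 436, and 860 and 637 CPM. Klra8 had 409 and 672, 618 and 241, and 462 and 308 CPM. In this pair of genes Cre-positive was the higher of the pair for vehicle and the lower at day 3 and day 7. That order is over all members, and the part of the mixed cells in it was not tested. These receptors are closely related in sequence, and reads from 1 copy may have been counted for another, so single members of the family are uncertain.

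Chemokines and cytokines were led by Ccl5, which draws T cells and monocytes, at 14071 and 9091, 13040 and 6228, and 11757 and 9147 CPM. Xcl1, which draws cross-presenting dendritic cells, had 1243 and 1076, 650 and 751, and 1436 and 452 CPM. Ifng, the cytokine interferon gamma, had 557 and 229, 505 and 625, and 495 and 310 CPM. Ccl5 was lower in the Cre-positive library of every pair, whereas Xcl1 and Ifng each had 1 pair in the opposite order, at day 3. These orders are over all members, and the part of the mixed cells in them was not tested. Ccl5 lay above both T cell types without overlap, CD8 T cells having 373 to 783 CPM and gamma-delta T cells 1317 to 2564 CPM.

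Of the trafficking receptors, Ccr2, which answers inflammatory chemokines, had 259 to 451 CPM in members and lay above CD8 and gamma-delta T cells in every library. Ccr7, the receptor that guides T cells and dendritic cells, was at 0 to 18.7 CPM in members against 117 to 210 CPM in CD8 T cells. S1pr1, the egress receptor of T cells, was at 18.7 to 73.4 CPM against 136 to 241 CPM, and S1pr5, the form used by NK cells, was at 16.3 to 48.3 CPM against at most 0.386 CPM. Klf2, a transcription factor that maintains egress receptors, was at 963 to 1400 CPM and above CD8 T cells.

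Atg12, the floxed gene, cannot serve as a check of recombination here, because the series text places the Cre in endothelium and NK cells hold few of its UMIs. It was at 29.6 and 55.6, 51.5 and 25.6, and 27.2 and 48.5 CPM, from 5 to 26 UMIs per library. Cre-positive was higher in 2 of the 3 pairs, and the counting intervals overlapped in all 3.

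A part of the members carried Il7r, the interleukin 7 receptor, and differed from the rest in the levels of single genes named below. This split was chosen with the values known and has no test. Of the 336 unmixed CD45 members, 96 (28.6%, 16.1% to 35.3% per library) held an Il7r UMI, against 0.848% of B cells, and their median depth was 4894 UMIs against 4363 for the 240 others. Gzma had 1643 CPM in the cells with Il7r and 9658 CPM in those without, Gzmb at 121 and 578 CPM, and Prf1 at 175 and 578 CPM. Each of the 3 was lower with Il7r in 6 of 6 libraries. The same held for Klra4 (159 against 1238 CPM), Klra8 (139 against 720 CPM), Itgam, the integrin of mature NK cells (15.9 against 96.6 CPM), Eomes (125 against 276 CPM) and Ccl4 (427 against 1288 CPM). Gzma was seen in 41.7% of the cells with Il7r and in 97.9% of those without.

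In the opposite direction, 6 of 6 libraries had more Cxcr6 in the cells with Il7r, at 159 against 3.51 CPM. Cxcr6 is a chemokine receptor of tissue-resident lymphocytes. The same order held for Tmem176b (141 against 7.90 CPM), Gpr183, an oxysterol receptor that guides lymphocytes (381 against 22.8 CPM), Inpp4b (258 against 49.2 CPM), Rora, a transcription factor of innate lymphoid cells (254 against 64.1 CPM), Ltb (776 against 239 CPM), Emb (895 against 320 CPM), Il18r1 (780 against 436 CPM) and Xcl1 (1413 against 851 CPM). Tbx21 had 278 and 255 CPM and Klrk1 at 1014 and 1023 CPM, with no common direction over libraries. The genes named for this split were picked after their values were seen. Cxcr6 was seen in 36.5% of the cells with Il7r and in 1.25% of those without, while Eomes was seen in 33.3% and 61.7%, so neither gene splits the population cleanly at this depth. The library with the smallest Il7r share, day 3 Cre-negative, was also the one with the highest Gzma.

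**Figure D2:**
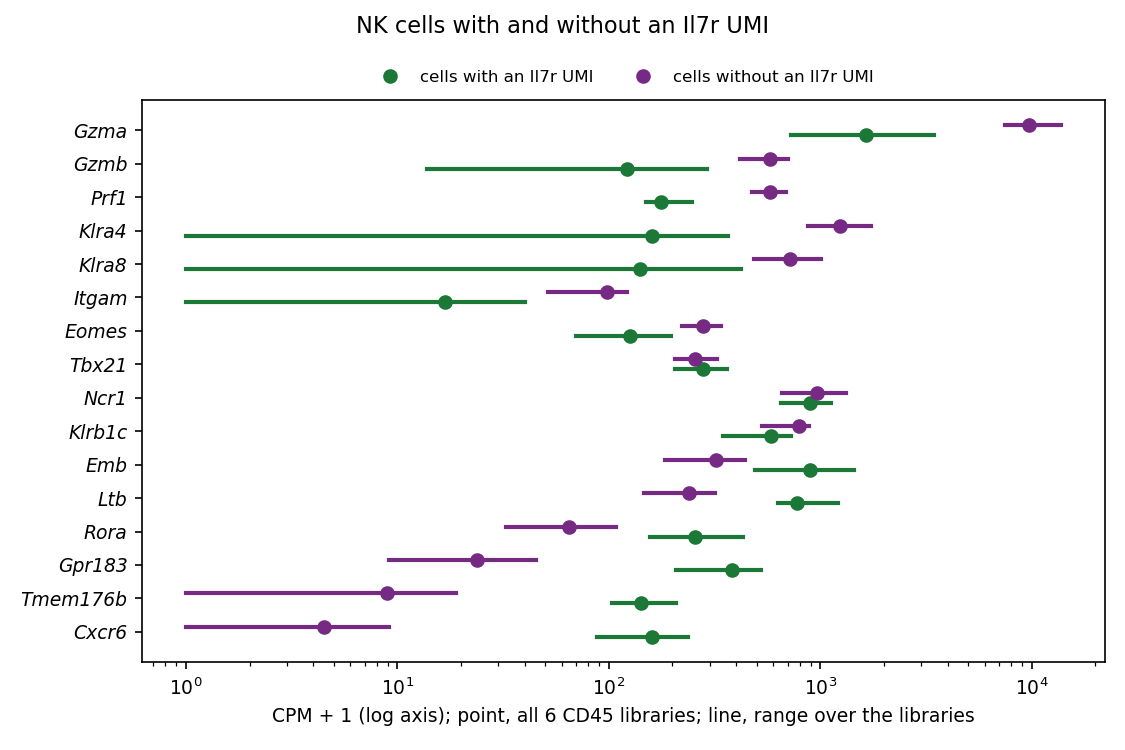
Levels of 16 genes in unmixed CD45 NK cells with (green) and without (purple) an Il7r UMI, in CPM + 1 on a log axis. Points are all 6 CD45 libraries summed and lines the range over libraries, and the ranges of Gzma, Prf1, Cxcr6 and Gpr183 do not overlap between the 2 kinds of cell.

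A UMI of Mki67 or Top2a, genes of proliferating cells, was found in 51 of 375 CD45 members, of which 40 were unmixed. By library these were 5 of 72 and 14 of 77, 7 of 66 and 11 of 42, and 2 of 44 and 12 of 74 members. Of these, 4 and 12, 7 and 7, and 2 and 8 were unmixed. The libraries held 64 and 72, 62 and 34, and 44 and 60 unmixed members. The count was higher in Cre-positive in all 3 pairs over all members, but equal at day 3 in unmixed members. As a share of unmixed members it was higher in Cre-positive in all 3 pairs, and no test is given. The Cre-positive members were also deeper in all 3 pairs, with medians of 3941 and 5279, 4369.5 and 6502.5, and 4170 and 4780.5 UMIs. A deeper cell is more likely to show a UMI of either gene, and the part of depth was not tested. Over all members, the CPM summed over the cell cycle genes was lower in Cre-positive for vehicle and day 7 and higher at day 3. Top2a alone was seen in 10.7% of unmixed members and in 5.22% of B cells, and Mki67 in 2.38% and 3.80%. The Top2a share was thus above that of B cells and the Mki67 share was not.

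The response of NK cells to oxazolone was tested on UMIs summed per CD45 library, with genotype and treatment in an additive model. At day 3, edgeR's quasi-likelihood test called 0 of 5838 genes (0%) at a Benjamini-Hochberg adjusted p of at most 0.05, and 0 of 4747 (0%) in unmixed members. DESeq2 also called 0, and 203 genes had an unadjusted p under 0.05. At day 7 it called 0 genes (0%), DESeq2 again 0, with 214 genes under an unadjusted 0.05. In unmixed members 1 of 4747 (0.0211%) was called at day 7, Cox6a2, the muscle form of a cytochrome oxidase subunit, with a log2 fold change of 4.54 ± 0.69 (SE) and an adjusted p of 0.0334. Its 87 UMIs lay in 9 of the 375 cells, and 1 cell held 43.7% of them. In data of this size simulated for the day 3 test, 76% of changes of 2 log2 units and 89% of changes of 3 were recovered, with 5 false calls. The simulation gave all genes 1 shared spread and held no genotype differences and no mixed cells. The recovery in the real data may therefore be lower. The counts of 0 rested on all 6 libraries: without the day 7 Cre-positive library, 72 genes were called at day 3 and 44 at day 7, and leaving out any 1 library gave 2 to 72 and 4 to 44.

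Over all genes tested the median log2 difference was 0.01 at day 3 and -0.00 at day 7. The NK identity genes had medians of 0.05 and 0.02 (21 of 22 tested), the cytotoxic genes 0.06 and -0.09 (19 of 22), the activating receptors -0.06 and -0.01 (22 of 23) and the Ly49 receptors -0.29 and 0.06 (6 of 13). No member of any list passed the test at either time. In unmixed members these medians were 0.06 and -0.02, -0.04 and -0.09, -0.02 and 0.05, and -0.12 and 0.15. The immediate early and stress genes, known to respond both to activation and to tissue digestion, had a median of 0.47 at day 3 with 16 of 16 above 0, and 0.10 at day 7, and in unmixed members of 0.48, again with 16 of 16 above 0, and -0.02. The summed level of the list was 9451 and 6140, 8498 and 13598, and 7208 and 7850 CPM, so at day 3 it was lower than vehicle in Cre-negative and higher in Cre-positive. One member, Hspa1a, a heat shock protein, had 613 and 267 CPM for vehicle, 924 and 1140 CPM at day 3, and 326 and 487 CPM at day 7, and its day 3 difference was 1.27 log2 units with an unadjusted p of 0.0146 and an adjusted p of 1. The Hspa1a day 3 libraries lay above all 4 others, but the gene did not pass. Interferon-stimulated genes had a median of 0.02 at day 3 and -0.41 at day 7. Cell cycle genes had medians of 0.30 and 0.43. In unmixed members the interferon-stimulated genes had 0.03 and -0.27 and the cell cycle genes 0.66 and 0.56.

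The genes with the smallest p for day 3 and day 7 that were not called included macrophage and dendritic genes. Timd4, Mreg, C1qb and Dnase1l3 had log2 differences of 2.29, 5.71, 2.03 and 4.23 at day 3. Marco, a macrophage scavenger receptor, had -4.95 at day 7 with an adjusted p of 0.0665. For day 7 against day 3, 3 of 5838 genes (0.0514%) were lower with edgeR: Marco by -6.37 ± 0.49 (SE), Timd4, a phosphatidylserine receptor, by -6.15 ± 0.47 and the complement gene C1qb by -5.72 ± 0.61. DESeq2 called 2, Marco and Timd4, and gave C1qb an adjusted p of 0.2201. Unadjusted, 250 genes were under 0.05. Marco had 2.96 and 189, 3.22 and 517, and 0 and 5.60 CPM. In the CD45 libraries 1 cell held 68.5% of its UMIs and mixed cells held 99.0%, and 1 cell held 79.0% of the Timd4 UMIs. In unmixed members 0 of 4747 genes (0%) were called for day 7 against day 3, with 280 under an unadjusted 0.05, and Marco was at most 4.23 CPM in any library. Leaving out 1 library gave 3 to 72 calls over all members, the most without the day 7 Cre-negative library. Without the day 3 or the day 7 Cre-positive library, 3 and 66 genes were called, and 0 of them were among Marco, Timd4 and C1qb.

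Between genotypes, 5 of 5838 genes (0.0856%) were higher in the Cre-positive libraries and 0 lower, with 554 genes under an unadjusted p of 0.05. Leaving out 1 library gave 6 to 119 calls, the most without the day 7 Cre-positive library. DESeq2 fitted 15819 genes, and its own filter left 791 of them with an adjusted p in this comparison. It called 18, 7 higher and 11 lower, of which 1 was among the 5. Of the 5, 3 were the same macrophage genes: Marco by 6.59 ± 0.43 (SE), Timd4 by 6.03 ± 0.42 and C1qb by 5.24 ± 0.54. With both fractions summed they fell to 3.41, 4.15 and 2.37 and none was called. Without the day 3 Cre-positive library 2 of the 5 remained, and Timd4 and C1qb were not called, C1qb also not without the day 3 Cre-negative one. The other 2 were Rasgef1b, a guanine nucleotide exchange factor induced in activated macrophages, by 2.92 ± 0.36 with an adjusted p of 0.0499, and Gm42418, named here after its values were seen since it falls outside the rule for named genes. In unmixed members the 5 of 4747 called (0.105%) were Gm42418 (0.96), Cdk8 (1.55), Cmss1 (1.32), Rasgef1b (3.00) and Cox6a2 (4.17), all higher.

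Gm42418 overlaps a ribosomal RNA unit at chr17:39846958-39848788 and had 4265 and 9552, 2582 and 6584, and 2742 and 9200 CPM in members, 1.37 ± 0.13 log2 units (SE) higher in Cre-positive with an adjusted p of 0.00937. All 3 Cre-positive libraries lay above all 3 Cre-negative libraries. The same order within each pair was present in CD8 T cells (3289 and 5070, 1965 and 4579, 2493 and 6854 CPM), in B cells and in the RNA of droplets with 10 to 100 UMIs (27901 and 33293, 22005 and 27986, 21669 and 50401 CPM). Cdk8 and Cmss1 followed it too. Cdk8, a kinase of the Mediator complex, had 219 and 635, 109 and 356, and 152 and 472 CPM in unmixed members, and in free RNA at 543 and 1267, 334 and 972, and 487 and 979 CPM. The genotype difference in these 3 genes was thus present outside NK cells as well and also in free RNA.

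Rasgef1b had 3.70 and 45.5, 18.2 and 199, and 10.9 and 19.7 CPM in unmixed members. Cre-positive was higher in all 3 pairs, but the vehicle and day 7 values came from few UMIs, 157 in 43 CD45 cells in all, and 50.3% of these lay in mixed cells. B cells did not share the order at day 7, at 267 and 149 CPM. Without the day 3 Cre-negative or the day 3 Cre-positive library, the edgeR adjusted p of Rasgef1b was 0.202 or 0.154, and it was 0.168 in members with both receptors.

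**Figure D3:**
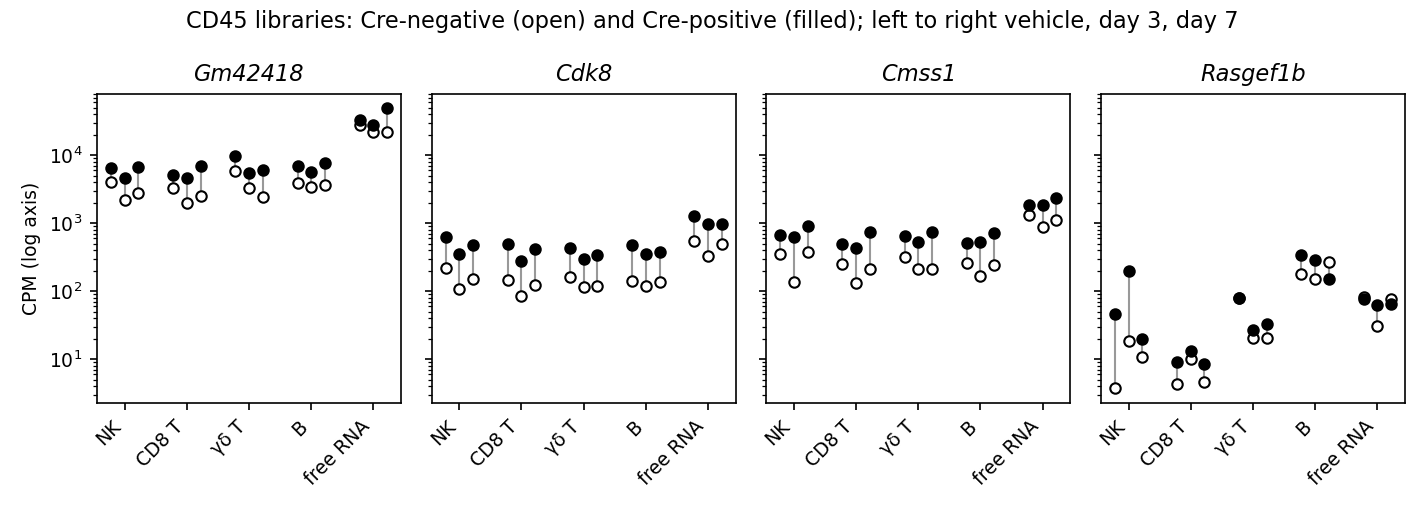
Levels in CPM on a log axis of 4 genes in NK cells without foreign markers, CD8 T cells, gamma-delta T cells, B cells and free RNA of the CD45 libraries. Open points are Cre-negative and filled points Cre-positive, a line joins each pair, in the order vehicle, day 3 and day 7 from left to right, and Gm42418, Cdk8 and Cmss1 are higher in Cre-positive in every pair.

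In the main edgeR fit no gene of the effector lists below was called between genotypes, and the lists themselves were not tested. The cytotoxic genes had a median of -0.37 (19 of 22 tested, 0 called), the Ly49 receptors -0.64 with 6 of 6 below 0, the cytokines and chemokines -0.59 and the NK identity genes -0.20, against 0.02 over all genes. Gzma differed by -0.68 (adjusted p 0.431), Ccl5 by -0.74 (0.133) and Klra1 by -1.16 (0.479). In unmixed members the medians were -0.04, -0.33, -0.16 and -0.01 in the same order, against 0.01 over all genes, and Gzma differed by -0.38. The mixed share was higher in Cre-positive at day 3 and day 7 and lower for vehicle, and its part in these differences was not tested.

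Between fractions, with each condition as a block, 34 of 4528 genes (0.751%) differed, 31 higher in CD31 and 3 lower, and 411 were under an unadjusted p of 0.05. Leaving out 1 condition gave 20 to 110 calls, the most without day 7 Cre-positive, and DESeq2 called 139, 133 higher and 6 lower, of which 28 were among the 34. Of the 10 endothelial markers, Kdr and Pecam1 passed the filter on low counts. Kdr, the VEGF receptor of endothelium, was at 0 to 5.12 CPM in the CD45 libraries and 63.7 to 171 CPM in the CD31 libraries, so it passed only through CD31 and had to differ, with a fitted 5.56 ± 0.43 log2 units (SE) over a level near 0. Pecam1 (CD31 itself) was at 50.3 to 71.7 CPM in CD45 and 75.0 to 469 CPM in CD31, higher by 2.02 ± 0.30. Other genes with large increases were Hspb1 by 2.96, Tshz2 by 2.82, Col4a1 by 2.74 and Tcf4 by 1.87 ± 0.20. Whether Hspb1, Tshz2 and Col4a1 also passed the filter only through CD31 was not examined. A gene that did so had to differ, as Kdr did, so their increases are not read as results. S1pr1, expressed by both lymphocytes and endothelium, was 1.11 ± 0.21 higher. The lower genes were Dcn (-3.96), a fibroblast proteoglycan, Plac8 (-2.62) and Gsn (-2.54). Mixed cells held 98.6% of the Kdr UMIs, 84.0% of those of Pecam1, 85.6% of those of Tcf4 and 66.9% of those of S1pr1 in the CD31 libraries. Kdr and Pecam1 were among the genes that defined mixed cells, so their shares are partly fixed by that choice. Tcf4 and S1pr1 were not among those genes.

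In unmixed members 3 of 3218 genes (0.0932%) differed between fractions, all lower in CD31: Cdk8 by -1.17, Cmss1 by -0.85 and AY036118, which overlaps the same ribosomal unit as Gm42418, by -0.80. Pecam1 differed there by 0.36 with an adjusted p of 0.998 and S1pr1 by 0.17. Because Pecam1 was used to define mixed cells, its value in unmixed members is partly fixed by that choice. NK genes were close in both fractions: Gzma differed by -0.04, and the medians of unmixed members were -0.03 for NK identity genes, -0.01 for cytotoxic genes and -0.04 for activating receptors, against -0.00 over all genes. Over all members 20 of 20 activating receptor genes lay below 0 with a median of -0.27, and in unmixed members 11 of 18 did. The part of the mixed cells, 24.4% of members in CD31 and 10.4% in CD45, was not tested.

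**Figure D4:**
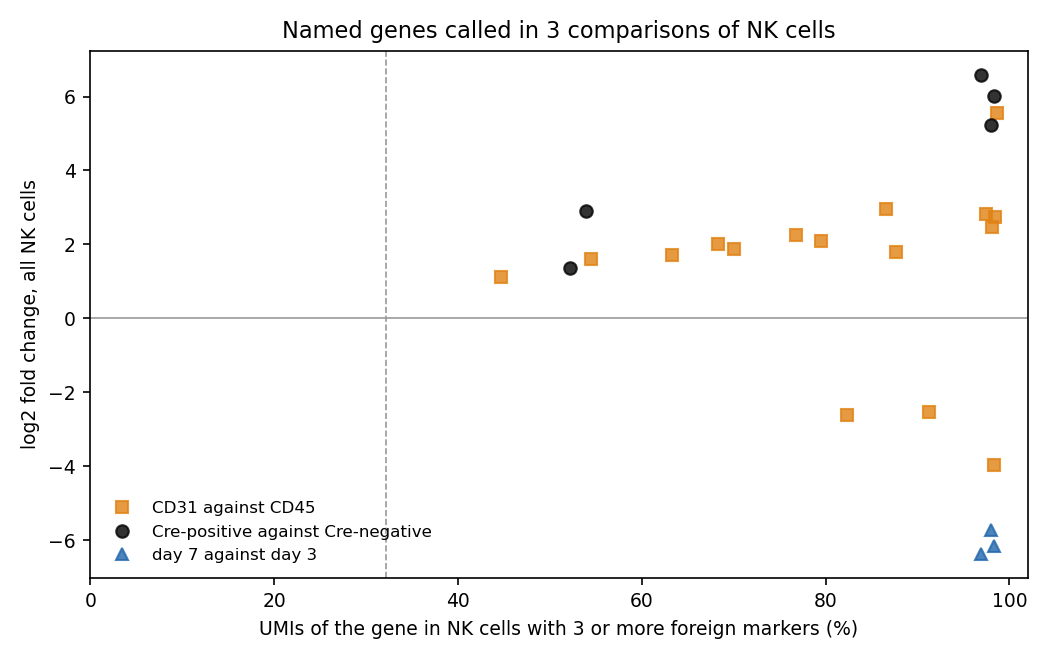
Each point is a named gene called in 1 of 3 comparisons of NK cells, by the percentage of its UMIs in mixed cells (x axis) and its log2 fold change over all members (y axis). The dashed line marks the mixed cells' share of all UMIs of members, 32.1%, and every point lies to its right, from S1pr1 at 44.7% to Kdr at 98.6%. Kdr, Pecam1, Dcn and C1qb were among the genes that defined mixed cells, so their place is partly fixed by that choice.

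Whether NK cells responded to oxazolone as CD8 T cells did was tested by an interaction in 1 model of both cell types over the 6 CD45 libraries. The CD8 T cells were those chosen above, which held no UMI of Ncr1 or Klrb1c. At day 3, 109 of 12788 genes (0.852%) differed in response, 39 more positive in NK cells and 70 more negative, and at day 7, 64 (0.5%), 19 more positive and 45 more negative. In unmixed members the counts were 48 of 12381 (0.388%) and 16 (0.129%), with 38 and 8 genes shared with the counts over all members. The 48 included the antigen-presenting genes Cd74 (2.15) and H2-Eb1 (4.19), which were not called over all members. Unmixed members of the 12 libraries still held 53.1 CPM of Cd74, so they are not free of such RNA. Their directions were 19 more positive and 29 more negative at day 3, and 14 more positive and 2 more negative at day 7. The balance of directions also moved with single libraries. It was 46 more positive and 35 more negative at day 3 and 37 and 23 at day 7 without the vehicle Cre-negative library, 0 and 54 and 1 and 37 without the vehicle Cre-positive one, and 59 and 45 at day 3 without the day 3 Cre-negative one. The model estimated 1 spread shared by the genes, so its p-values carry no spread of the single gene. DESeq2 called 4 genes at day 3, namely Gzmb, Hmgb2, Hist1h1b and Lgals1, and 1 at day 7, Apoe. Without the vehicle Cre-positive library the edgeR counts were 54 and 38.

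Both granzymes were called at both times. Gzmb in CD8 T cells had 12.0 and 5.14 CPM for vehicle, 157 and 89.9 CPM at day 3 and 1.25 and 3.37 CPM at day 7, while in NK cells it stayed between 209 and 554 CPM throughout. The day 3 CD8 libraries lay above all others, and every NK library lay above every CD8 library. The day 3 difference in response was -3.87 ± 0.30 log2 units (SE), with a DESeq2 adjusted p of 0.00136, and -3.80 in unmixed members. It ranged from -4.96 to -2.91 when a library was left out. At day 7 it was 1.34 ± 0.36, with a DESeq2 adjusted p of 1.00, and was 0.08 without the day 7 Cre-negative library and 0.30 without the vehicle Cre-negative one.

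Gzma in CD8 T cells had 5.65 and 89.0 CPM, 158 and 120 CPM, and 1.67 and 3.77 CPM, against 4258 to 11198 CPM in NK cells. The 2 vehicle CD8 libraries were far apart. The difference in response was -2.07 ± 0.14 (SE) at day 3 and 3.33 ± 0.17 at day 7. It was -0.64 at day 3 without the vehicle Cre-negative library (edgeR adjusted p 0.546), -3.89 without the vehicle Cre-positive, -0.92 without the day 3 Cre-negative and -3.32 without the day 3 Cre-positive library, and 1.35 at day 7 without the vehicle Cre-positive one (0.0506). DESeq2 gave an adjusted p of 1.00 at both times. Gzma was seen in at most 8.44% of CD8 T cells in any CD45 library and in 0.273% of B cells.

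Hmgb2, a chromatin protein raised in cycling cells, had 459 and 396, 1761 and 1438, and 253 and 379 CPM in CD8 T cells and at 835 and 587, 567 and 738, and 947 and 825 CPM in NK cells. Its day 3 difference in response was -1.92 ± 0.20 (SE) with a DESeq2 adjusted p of 0.0481. Lgals1, a galectin of activated lymphocytes, had 224 and 187, 959 and 793, and 139 and 253 CPM in CD8 T cells, and at 976 to 1741 CPM in NK cells. In both genes the CD8 T cells at day 3 stood apart from vehicle and day 7, and the NK libraries showed no such step. Hist1h1b, a linker histone, differed by -4.90 ± 0.49, but 42.5% of its 113 UMIs in CD45 members lay in 1 cell. Of the 26 cell cycle genes, 4 were called at day 3, all more negative in NK cells, with a list median of -1.46 against -0.01 over all genes, and 6 at day 7, all more positive, with a median of 1.15 against -0.03. Over all genes 0.852% and 0.5% were called. In unmixed members the list had 1 call at day 3 and 7 at day 7. Of the 7, Birc5, Cdca8, Nusap1, Pclaf and Ube2c had 0 UMIs in both vehicle libraries of unmixed members and 2 to 18 in each day 7 library, so their fitted values give no size. Hmgb2 at day 7 lost its call in 4 of 10 alternatives and was 0.38 without the day 7 Cre-negative library.

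**Figure D5:**
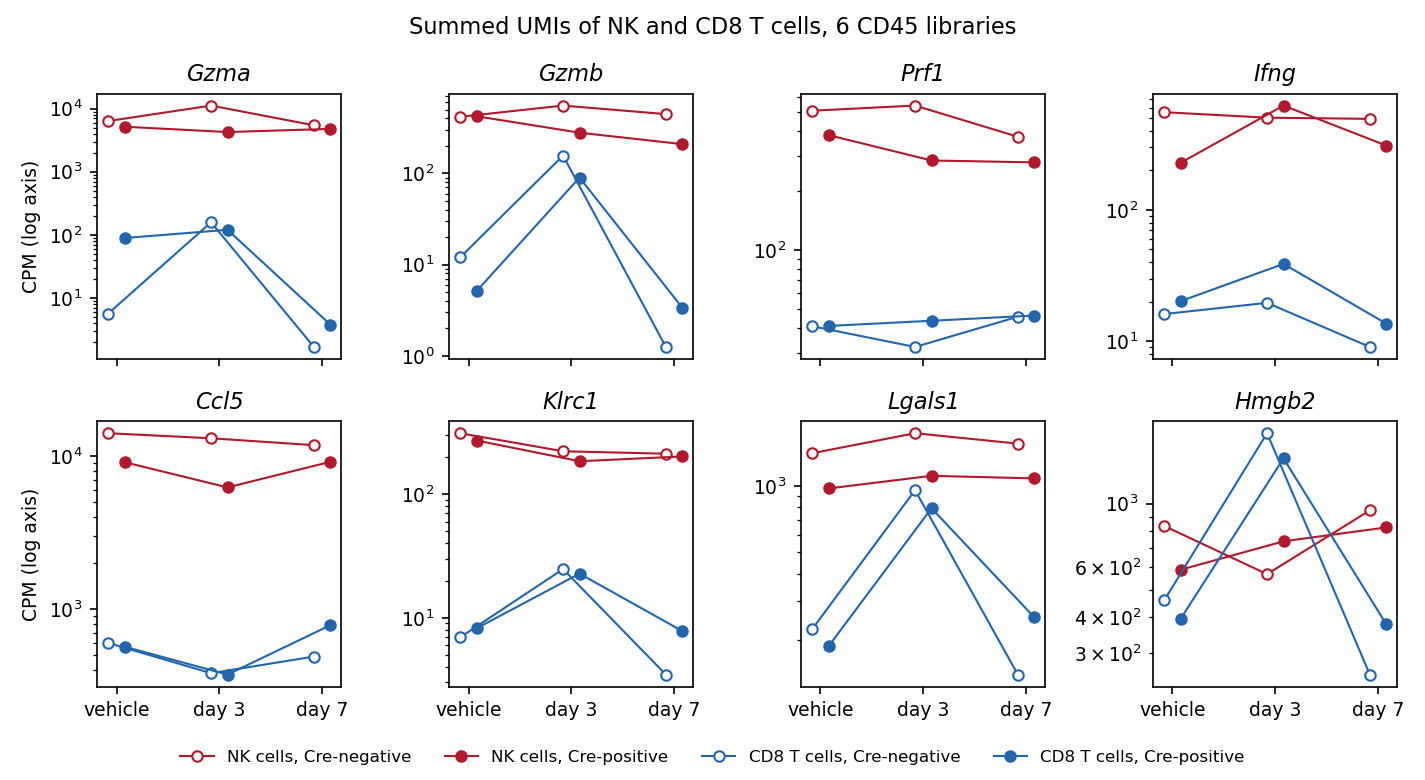
Levels of 8 genes in CPM on log axes by skin treatment, in NK cells (red) and CD8 T cells (blue) of the CD45 libraries, open for Cre-negative and filled for Cre-positive. Gzmb, Lgals1 and Hmgb2 peak at day 3 in CD8 T cells, and the NK values of Gzmb stay between 209 and 554 CPM.

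Of the 22 activating receptor genes tested, 4 were called at day 3, all more negative in NK cells, against 0.852% of all genes in either direction. They were Fcer1g (-1.54), Klrc2 (-1.42), named after its values were seen, Tyrobp (-1.05) and Klrk1 (-1.03), and of 21 trafficking receptors Itgb1 (-1.26), an integrin chain, was the 1 called. Over the alternatives Fcer1g ranged from -2.78 to -0.57, Tyrobp from -1.83 to -0.13, Klrk1 from -1.37 to -0.69 and Itgb1 from -1.959 to -0.55. Fcer1g, Tyrobp, Klrk1 and Itgb1 were not called without the vehicle Cre-positive library, and Tyrobp and Klrk1 were also not called without the day 3 Cre-negative one. For 2 of these genes the CD8 levels were low, Fcer1g at 2.19 to 14.3 CPM and Tyrobp at 3.47 to 19.8 CPM in CD8 T cells, and the free RNA of the same libraries held 75.8 to 197 CPM and 141 to 312 CPM. The part of free RNA in these calls was not tested, and DESeq2 called none of Fcer1g, Klrc2, Tyrobp, Klrk1 and Itgb1. Ccl5 (0.39), Hspa1a (1.03) and Dusp1 (1.00) were called as more positive in NK cells, but not by DESeq2 and not without the vehicle Cre-positive library. Over the alternatives Hspa1a ranged from 0.64 to 1.43 and Dusp1, also not called without the day 3 Cre-positive library, from 0.55 to 1.44. Ccl5 ranged from 0.18 to 0.60 and lost its call in 6 of 10 alternatives. At day 7 the genes called as more negative included Apoe (-3.35, DESeq2 adjusted p 0.000216), Ccl21a (-5.37), Ccl19 (-4.55), Col3a1 (-2.60) and Dcn (-2.22), genes of macrophages and stroma. None of these 5 was called in unmixed members, and mixed cells held 97.5% of the Apoe UMIs of CD45 members. Ccl21a, Ccl19, Col3a1 and Dcn were among the genes that defined mixed cells, so their lost calls partly follow from that choice. Apoe was not among those genes.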

How the data were processed

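The authors deposited UMI counts per gene and barcode, unfiltered, and the submitters' processing notes name Cell Ranger 7.0.1 and mm10. The file headers carry a tag of another Cell Ranger release (4), and the labels name V2 chemistry while up to 1741267 barcodes are listed per library, so the release behind the counts is uncertain. Annotation and strand setting are not given in the sources used here. The cell filter was 1000 UMIs, 500 genes and a mitochondrial share of up to 10%, and doublet scores (scanpy 1.11.5) were used in an alternative only. Free RNA is the sum of barcodes with 10 to 100 UMIs.

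UMIs of members were summed per library and tested with edgeR 4.0.16 (TMM, quasi-likelihood, Benjamini-Hochberg adjustment over all genes tested) in R 4.3.3, with additive genotype and treatment over the 6 CD45 libraries. The fraction comparison used condition and fraction over 12 libraries, and the comparison with CD8 T cells used library and cell type with interactions. With 1 library per group there is no test within a time point, and the additive fit counts any interaction as error. The fits were tested on simulated data with 1 spread shared by all genes. DESeq2 1.42.0, other size factors, no filter, other gates, removal of doublets and leaving out each library were tried as alternatives. Setting aside cells with at least 3 foreign markers was chosen after seeing the data. Intervals of shares and levels are exact, those of the ratio of shares use a normal approximation on the log scale, and all cover counting error only.

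The members, lists and tests were chosen with earlier results of these data known. Named genes were called list members (up to 12 a comparison, by mean CPM), other called genes of at least 20 CPM (10 largest in each direction, leaving out gate, antigen receptor, mitochondrial, ribosomal, sex-linked and unofficial-symbol genes, with the smallest p filling up to 6), up to 6 members per list by mean CPM, and Ncr1, Klrb1c, Eomes, Gzma and Atg12. Some genes of the lists are not reported here.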

Additional observations from a re-analysis of the deposited data

Results flagged for a closer look

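NK and CD8 T cells of the same CD45 libraries differed in their response to oxazolone by a test of the difference itself. Over all members, edgeR called 109 of 12788 genes (0.852%) at day 3 and 64 (0.5%) at day 7. In unmixed members the counts were 48 of 12381 (0.388%) and 16 (0.129%), with 38 and 8 shared with those calls. At day 7, 19 genes were more positive and 45 more negative over all members, against 14 and 2 in unmixed members. Gzma differed by -2.07 at day 3 and 3.33 at day 7 on the log2 scale, and Gzmb by -3.87 and 1.34. Gzma was -0.64 at day 3 without the vehicle Cre-negative library and 1.35 at day 7 without the vehicle Cre-positive one, and Gzmb at day 7 was 0.08 without the day 7 Cre-negative library. DESeq2 called 4 genes at day 3, Gzmb among them, and 1 at day 7, which was neither granzyme, and its adjusted p was 1.00 for Gzma at both times. In both genes the CD8 T cells moved from a low level and the NK cells held a high one. The part of the few dividing or granzyme-bearing CD8 T cells in these values was not tested.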

How the results depend on the processing

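No analysis paired by replicate was possible because each group is 1 library and the labels carry no replicate numbers, so no fit with a replicate number was run. Matched libraries were already terms of the models, as condition in the fraction test, treatment in the genotype test and library in the comparison with CD8 T cells. Counts of calls are given in the order day 3, day 7, day 7 against day 3, genotype, fraction, and the day 3 and day 7 comparisons with CD8 T cells. Leaving out 1 library, or 1 condition for the fraction, gave 2 to 72, 4 to 44, 3 to 72, 6 to 119, 20 to 110, 54 to 114 and 38 to 74 calls. For the first 5, leaving out the day 7 Cre-positive library gave 72, 44, 66, 119 and 110, and leaving out the day 7 Cre-negative one gave 72 for day 7 against day 3. Against CD8 T cells the highest came without the day 7 Cre-negative library at day 3 and without either day 3 library at day 7, and the lowest without the vehicle Cre-positive one. With no filter on low counts the first 5 were 82, 50, 94, 238 and 517, and without the highest doublet scores the first 4 were 19, 12, 33 and 48. DESeq2 called 18 for genotype, 139 for fraction, and 4 and 1 against CD8 T cells. Members with both receptors gave 2 for genotype and 5 for fraction, both fractions summed gave 0 for day 7 against day 3 and 0 for genotype, and members without any UMI of other types gave 0 and 3. Without mixed cells the counts were 1 for day 7, 0 for day 7 against day 3, 3 for fraction, and 48 and 16 against CD8 T cells. The cause was not tested. Of the values of named genes under an alternative with an adjusted p, 684 kept direction and side of the threshold, 255 lost it, 66 gained it and 36 changed sign. In the day 3 test, leaving out 1 library moved C1qb from -0.81 to 2.24 and Dnase1l3 from -0.18 to 4.31. In the test of day 7 against day 3, leaving out 1 library moved C1qc from -7.18 to 0.15 and C1qa from -5.62 to 1.87. In the day 3 comparison with CD8 T cells, leaving out 1 library moved Cst3 from -0.54 to 2.83, Apol7c from -4.08 to 18.06, Ccl22 from -2.004 to 10.66, Inmt from -5.44 to 12.44, Dnase1l3 from -1.75 to 5.85, Cxcl1 from -2.002 to 13.70, Mpeg1 from -8.36 to 6.11 and Cd86 from -6.67 to 3.75. In the day 7 comparison with CD8 T cells, leaving out 1 library moved Cst3 from -0.74 to 2.63, H2-Aa from -5.02 to 4.68, Cd86 from -6.98 to 3.44 and Pcdh15 from -9.20 to 3.601. Without mixed cells, Apol7c was -3.05, Dnase1l3 was -0.035, Cd86 was -5.27, Igfbp5 was 0.014 and Col6a3 was 5.15 in the day 3 comparison with CD8 T cells. Without mixed cells, Cst3 was -0.32, H2-Aa was -0.79, Dcn was 0.16, Pcdh15 was -6.21, Ccl8 was 4.24 and Marco was 6.76 in the day 7 comparison with CD8 T cells. None of the genes given without mixed cells was called there, so their signs and sizes are not read as results. These changes of sign under a left-out library came without the vehicle, day 3 or day 7 Cre-positive one. The ratio of NK shares kept its direction under every alternative run. Depth limits the tests to 42 to 77 members per CD45 library.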
